A study of Homo sapiens with 22 samples.

Results

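GIMEN is an established human neuroblastoma cell line that the labels class as mesenchymal. The results concern its response to a 30-day culture with PP121, which inhibits both tyrosine kinases and phosphoinositide kinases, and bufalin, a cardiac glycoside. The members were chosen by their labels alone: the 3 libraries of treated GIMEN cells and the 3 libraries of untreated GIMEN cells, 6 of the 22 libraries in the series, compared across all genes. The other 16 libraries came from SK-N-AS, another neuroblastoma line labelled mesenchymal.

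Untreated GIMEN cells were kept in RPMI medium with 10% fetal bovine serum. Treated cells received 2.5 µM PP121 and 10 nM bufalin in RPMI with 1% fetal bovine serum for 30 days. All 6 libraries share the medium base, the line and the RNA preparation, in which total RNA was treated with DNase. The labels give no vehicle group, no group with only PP121, only bufalin or only low serum, and no earlier time for GIMEN. PP121, bufalin, low serum and the length of culture therefore changed together, and their effects cannot be told apart. The labels do not say that replicates were separate cultures, so p-values measure the spread between these libraries only, which may be technical.

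Neuroblastoma arises in the developing sympathetic nervous system. Its cell lines are often described along an axis from an adrenergic state, held by transcription factors such as HAND2 and GATA3, to a mesenchymal state rich in matrix and motility genes such as PRRX1, VIM and FN1. Cardiac glycosides bind the sodium pump, which exports sodium and imports potassium. Phosphoinositide 3-kinase and mTOR signal growth factor supply, and FOXO transcription factors enter the nucleus and switch on their targets when that signal falls.

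Total counts were 20162528 to 23248253 in the untreated libraries and 16456484 to 19002482 in the treated ones. Across genes, log2 CPM (a count as a share of the library total, scaled for library composition) correlated at 0.992 to 0.993 within the untreated group, at 0.985 to 0.988 within the treated group and at 0.883 to 0.893 between groups. Genes of the mitochondrial genome took 3.83% to 4.07% of counts in untreated libraries and 4.77%, 4.23% and 2.86% in treated replicates 1 to 3. Reads carry no molecular identifiers, so counting limits cover counting error only. In bulk RNA, fewer cells of a type and less RNA per cell cannot be told apart.

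The label was checked against defining markers. Of the adrenergic markers, TH had 0 counts in all 6 libraries, PHOX2A had 0 or 1 count and DBH 0 to 4 counts, so these genes of the adrenergic programme were not detectable, or barely so, at this depth. HAND2 and GATA3 were present, at a mean of 329 ± 9.34 CPM (SD, n = 3) and 54.6 ± 2.82 CPM (SD, n = 3) in untreated cells. The mesenchymal markers VIM, FN1, CD44, PRRX1, SNAI2, TWIST1, ZEB1 and YAP1 were all expressed, VIM at 5308 ± 148 CPM (SD, n = 3) and FN1 at 28564 ± 968 CPM (SD, n = 3). Of 14 markers of white blood cells, endothelium and epithelium, 6 had at most 3 counts in every library of both groups, among them MS4A1, LYZ, CDH5, VWF and KRT5. Their summed level was 13.2 to 16.9 CPM in untreated and 30.3 to 33.1 CPM in treated libraries. This difference came with PECAM1, an adhesion receptor of endothelium and blood cells, at 2.66, 2.45 and 2.52 CPM untreated and 21.3, 26.8 and 25.4 CPM after treatment (log2 fold change 3.26, SE 0.13, adjusted p = 2.11e-09). CDH5 and VWF, the defining endothelial markers, stayed at or near 0 in both groups. PTPRC, the pan-leukocyte marker, was at 0.886 ± 0.362 CPM (SD, n = 3) in untreated and 0.389 ± 0.201 CPM (SD, n = 3) in treated cells, and its call as lower was lost with upper-quartile scaling, DESeq2 and other alternatives. CSF1R, a macrophage receptor, was lower (log2 fold change -1.20, SE 0.20, adjusted p = 2.18e-04).

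Of 35237 genes in the table, 13517 passed the filter on low counts and were tested. At an adjusted p under 0.05, 9653 genes (71.4% of those tested) differed between treated and untreated GIMEN cells, 4792 higher (35.5%) and 4861 lower (36%). The median log2 fold change over all genes was 0.02. With a change of at least 2-fold as well, 3337 genes remained (24.7%), 1599 higher (11.8%) and 1738 lower (12.9%). For 10158 genes (75.1%), all treated libraries lay on the same side of all untreated ones. Every count below is to be read against these shares, since a list with about 7 in 10 members called is at the level of all genes. Members named in each list were mostly its called ones of largest change, so their lack of overlap between groups follows largely from that choice. Genes that changed by a log2 fold of 4 or more were mostly losses, 195 lower against 85 higher. In the plot of change against level, mitotic genes lie low in the cloud, between -7.87 and -3.11, with RIMS1 (-8.91) and APOBEC3B (-8.38) lower still.

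**Figure D1:**
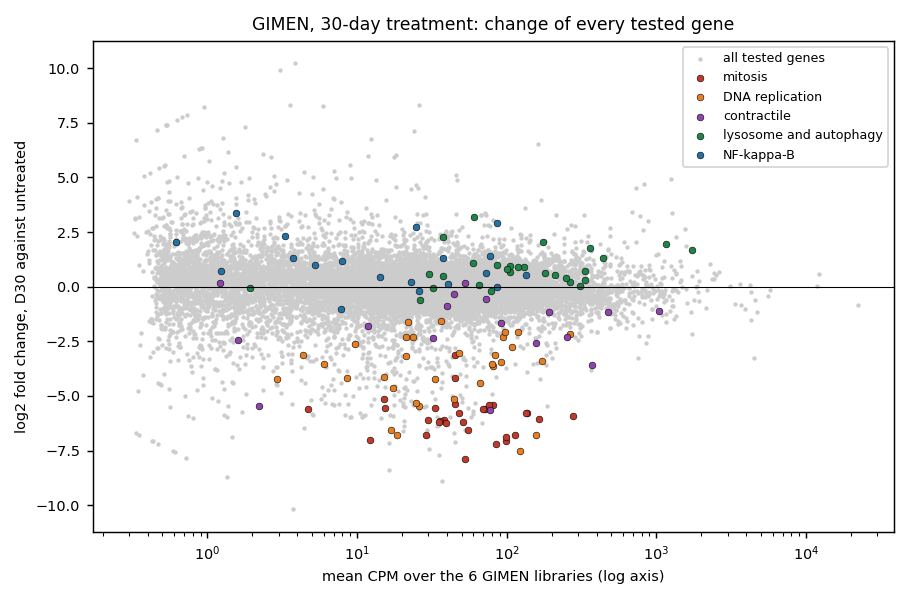
Log2 fold change of each of the 13517 tested genes (vertical axis, treated against untreated) against its mean CPM over the 6 GIMEN libraries (horizontal axis, log scale). Grey points are all tested genes and coloured points are members of 5 lists. All 30 mitosis and all 32 DNA replication genes lie below 0.

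The counting method, its use of strand and its handling of shared reads are not given in the sources used here. Among the genes named, some share exons or sequence with other genes in the GENCODE annotation, and their values are uncertain for that reason. Exons opposite another gene made up 100% of MSMP, 40.5% of DUSP6, 38.5% of CA9, 31.6% of DDIT3, 30.1% of ACTA2, 26.5% of IER3, 24.4% of VIM and 21.2% of PAPPA. Words of 75 bases that also occur in other genes made up 100% of IRF9, 79.4% of TUBB3, 53.8% of NDUFB8, 52% of RPS2, 39.8% of PGAM1, 38.7% of MXD3, 32.9% of APOBEC3B, 28% of RRM2, 25.1% of RPS26, 22% of PIK3R3, 21.5% of IGF2 and 21.4% of RPSA. Smaller overlaps with an opposite gene, of 10% to 18%, applied to NQO1, HMGCS1, JUNB, GDNF, TAGLN, BCL2L11, THY1 and CCND1.

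Genes of the cell division machinery fell steeply in treated GIMEN cells, and of the lists described the mitosis list had the lowest median. All 30 genes of the mitosis list were lower, with a median log2 fold change of -5.98 against 0.02 for all genes, and their summed level was 3974 to 4050 CPM in untreated and 64.2 to 79.4 CPM in treated libraries. KIF20A, a kinesin of the central spindle, was at 103, 104 and 108 CPM untreated and 0.624, 0.339 and 0.345 CPM after treatment (log2 fold change -7.87, SE 0.13, adjusted p = 2.74e-12). CDC20, which activates the anaphase-promoting complex, was at 163, 173 and 168 CPM untreated and 1.66, 0.508 and 1.21 CPM after treatment (log2 fold change -7.20, SE 0.16, adjusted p = 2.01e-11). BIRC5, also called survivin, a subunit of the chromosomal passenger complex, was at 185, 204 and 203 CPM untreated and 1.82, 1.3 and 1.21 CPM after treatment (log2 fold change -7.08, SE 0.11, adjusted p = 2.74e-12). Every treated library was far below every untreated one, and no treated value exceeded 1.82 CPM. CENPA, the histone variant that marks centromeres, was at 24.4, 22.6 and 25.8 CPM untreated and 0.208, 0.169 and 0.173 CPM after treatment (log2 fold change -6.99, SE 0.19, adjusted p = 7.27e-11). MKI67, the Ki-67 proliferation antigen, was at 232, 209 and 236 CPM untreated and 2.5, 1.81 and 1.78 CPM after treatment (log2 fold change -6.78, SE 0.11, adjusted p = 2.74e-12). These genes too had no overlap between groups. The least changed member of the list still fell by 3.11 on the log2 scale.

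All 32 genes of the DNA replication list were lower as well, with a median of -3.49 and a range from -7.53 to -1.57. TK1, the thymidine kinase of the salvage pathway, was at 238, 251 and 248 CPM untreated and 1.14, 1.52 and 1.32 CPM after treatment (log2 fold change -7.53, SE 0.10, adjusted p = 2.05e-12). RRM2, the regulated subunit of ribonucleotide reductase, was at 310.2, 311 and 309 CPM untreated and 3.43, 2.37 and 2.65 CPM after treatment (log2 fold change -6.77, SE 0.10, adjusted p = 2.69e-12). MCM10, which helps to start the replication fork, was at 36.5, 37.7 and 36.4 CPM untreated and 0.208, 0.282 and 0.518 CPM after treatment (log2 fold change -6.77, SE 0.17, adjusted p = 4.67e-11). The treated libraries of all of them lay below the untreated ones, and the untreated values were nearly identical to each other. CDC45, a subunit of the replicative helicase, was at 33.3, 33.9 and 33.6 CPM untreated and 0.572, 0.169 and 0.288 CPM after treatment (log2 fold change -6.56, SE 0.19, adjusted p = 1.48e-10), and without treated replicate 1 its log2 fold change was -7.16. The summed level of the replication list was 3400 to 3500 CPM in untreated and 402 to 423 CPM in treated libraries, so the loss was smaller than that of the mitosis list.

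Promoter sequence is shown for members of both lists because these lists had the lowest medians of the 38 and moved without exception. Late cell cycle promoters are known for a short element named CHR (TTTGAA), bound by the DREAM and MuvB complexes, while replication genes are known for E2F sites. Promoters from RefSeq (GRCh38.p14), 300 bases long from 250 before to 50 after the start, were searched on both strands, and the motifs were chosen with results known. TTTGAA was present in 16 of 24 mitosis promoters (66.7%), against 9.91% of the promoters of 9901 tested genes and 15.4% of all 27305 promoters. CCAAT was present in 70.8% of the mitosis promoters and in 36.9% of those of tested genes. TTTGGCGC or TTTCGCGC was present in 10 of 27 replication promoters (37%), against 1.97% of those of tested genes. The next lines give the 150 bases before the start, on the gene's strand, for the members of largest change that hold the element there, CHR matches in capitals for CDC20 at chr1:43358831-43358980 (plus strand), CENPA at chr2:26785906-26786055 (plus strand) and MKI67 at chr10:128126424-128126573 (minus strand), and E2F matches in capitals for E2F2 at chr1:23531234-23531383 (minus strand) and E2F1 at chr20:33686386-33686535 (minus strand).
CDC20: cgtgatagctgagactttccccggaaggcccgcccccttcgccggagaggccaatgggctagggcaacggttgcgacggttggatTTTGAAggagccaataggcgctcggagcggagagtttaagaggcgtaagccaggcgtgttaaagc
CENPA: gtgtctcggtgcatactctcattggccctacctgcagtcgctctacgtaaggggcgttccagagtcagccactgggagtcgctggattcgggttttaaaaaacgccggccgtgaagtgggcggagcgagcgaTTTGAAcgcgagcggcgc
MKI67: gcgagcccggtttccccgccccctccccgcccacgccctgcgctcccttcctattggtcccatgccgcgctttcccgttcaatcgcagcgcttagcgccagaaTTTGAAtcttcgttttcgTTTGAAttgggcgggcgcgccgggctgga
E2F2: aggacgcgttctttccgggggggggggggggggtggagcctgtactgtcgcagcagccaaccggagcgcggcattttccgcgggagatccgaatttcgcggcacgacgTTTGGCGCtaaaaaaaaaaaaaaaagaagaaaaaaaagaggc
E2F1: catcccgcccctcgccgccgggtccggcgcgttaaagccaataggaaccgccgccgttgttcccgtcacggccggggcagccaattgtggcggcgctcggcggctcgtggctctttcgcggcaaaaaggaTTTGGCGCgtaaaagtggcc
The MKI67 stretch holds 2 matches, the first 47 bases before the start, and the CENPA match begins 18 bases before it. E2F2 and E2F1, activators of S-phase genes that were named for their promoters, fell by 4.21 and 3.03 on the log2 scale. A match is a description of letters and shows no binding.

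Genes that control G1 did not move as a block. Of 13 tested genes of a list that holds cyclin-dependent kinase (CDK) inhibitors, D-type cyclins, their kinases and pocket proteins, 7 were higher and 6 lower. CDKN2B, the p15 inhibitor of CDK4 and CDK6, was at 67.4, 65.1 and 65.1 CPM untreated and 327, 345 and 366 CPM after treatment (log2 fold change 2.39, SE 0.06, adjusted p = 8.30e-11). CDKN2A, which encodes p16 and ARF, was at 11.3, 11.9 and 13.5 CPM untreated and 31.9, 37.6 and 33.5 CPM after treatment (log2 fold change 1.49, SE 0.10, adjusted p = 1.09e-07). CDKN2C, the p18 inhibitor, went the other way, at 89, 93.5 and 94 CPM untreated and 6.24, 5.53 and 5.76 CPM after treatment (log2 fold change -3.98, SE 0.08, adjusted p = 6.96e-12). Each of these had groups that did not overlap. CDKN1A, the p21 inhibitor, was at 214, 220.2 and 214 CPM untreated and 470.1, 401 and 339.7 CPM after treatment (log2 fold change 0.90, SE 0.10, adjusted p = 8.17e-06). CDKN1B, the p27 inhibitor, was at 29.1, 30.6 and 31.4 CPM untreated and 59.6, 65 and 67.2 CPM after treatment, and CDKN2D, the p19 inhibitor, rose by 1.41 on the log2 scale. All treated libraries exceeded all untreated ones for these 3 inhibitors. CCND1, cyclin D1, was slightly higher, at 867, 889.5 and 864 CPM untreated and 1158, 1123 and 1029.8 CPM after treatment (log2 fold change 0.34, SE 0.07, adjusted p = 8.69e-04). Its kinase partners CDK4 and CDK6 fell by 0.84 and 0.82 on the log2 scale, and the pocket protein RBL1 fell by 1.82 while its relative RBL2 rose by 0.47.

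Of 9 genes of the nuclear lamina and high-mobility-group (HMG) list, 8 were lower. LMNB1, lamin B1 of the nuclear envelope, was at 159.9, 156 and 164 CPM untreated and 9.05, 7.84 and 10.8 CPM after treatment (log2 fold change -4.12, SE 0.09, adjusted p = 2.25e-11). HMGB2, a chromatin protein that bends DNA, was at 201, 212 and 219 CPM untreated and 18.5, 16.5 and 18.6 CPM after treatment (log2 fold change -3.56, SE 0.07, adjusted p = 1.04e-11). LMNA, which encodes lamins A and C, fell by only 0.21. HMGA1 was the member that rose, by 0.41, and that rise was not called with DESeq2, in the model of all 22 libraries, or when any library except treated replicate 3 was left out.

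Of 22 tested p53 targets, 6 were higher and 10 lower, with a median of -0.14. GDF15, a secreted stress cytokine, was at 57.9, 65 and 62.5 CPM untreated and 1985, 1457 and 1349 CPM after treatment (log2 fold change 4.69, SE 0.15, adjusted p = 2.36e-10), a 25.8-fold difference with no overlap. GADD45A, a DNA damage response gene, was at 95, 94.8 and 93.7 CPM untreated and 204, 197 and 224 CPM after treatment (log2 fold change 1.14, SE 0.06, adjusted p = 3.06e-08). FDXR and POLH, also p53 targets, fell by 1.5 and 1.20 on the log2 scale.

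In the BCL2 family, which controls mitochondrial cell death, 7 of 12 tested genes were higher and 4 lower. MCL1, a short-lived survival protein, was at 465, 476 and 458 CPM untreated and 2366, 2160.5 and 2233 CPM after treatment (log2 fold change 2.27, SE 0.07, adjusted p = 2.08e-10). BCL2L11, the death promoter BIM, was at 11.9, 11.7 and 9.97 CPM untreated and 50.9, 47.2 and 45.1 CPM after treatment (log2 fold change 2.09, SE 0.09, adjusted p = 3.35e-09). PMAIP1, the death promoter NOXA, was at 21.7, 26.2 and 24.1 CPM untreated and 57.3, 62.5 and 84.2 CPM after treatment (log2 fold change 1.5, SE 0.13, adjusted p = 1.26e-06). Treated libraries were above untreated ones for all of them, so survival and death genes both rose. BCL2 itself was low and fell by 1.03, and the death effector BAK1 fell by 1.01. BCL2A1 rose by 4.62 from a mean of 0.08 CPM and BMF by 3.85 from 0.127 CPM, levels at which a few counts set the fold.

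Of 7 tested genes of the sodium pump, which cardiac glycosides bind, 3 (42.9%) were called, all higher, against 71.4% of all genes, and 4 were not called. ATP1B1, a beta subunit needed for assembly, was at 82.6, 79.4 and 86 CPM untreated and 216, 307 and 361 CPM after treatment (log2 fold change 1.83, SE 0.15, adjusted p = 5.71e-07). ATP1B3, another beta subunit, was at 70.1, 70.8 and 68.6 CPM untreated and 132, 159.7 and 184 CPM after treatment (log2 fold change 1.18, SE 0.10, adjusted p = 9.66e-07). Treated libraries were above untreated ones in both, with treated replicate 1 lowest and replicate 3 highest. FXYD5, a regulator of the pump, was at 413, 436 and 418 CPM untreated and 519.9, 520.1 and 333 CPM after treatment, and its groups overlapped (log2 fold change 0.12, SE 0.14, adjusted p = 0.471). The plot of the sodium pump and cell cycle genes by library shows the groups apart for ATP1B1 and ATP1B3 and overlapping for FXYD5.

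**Figure D2:**
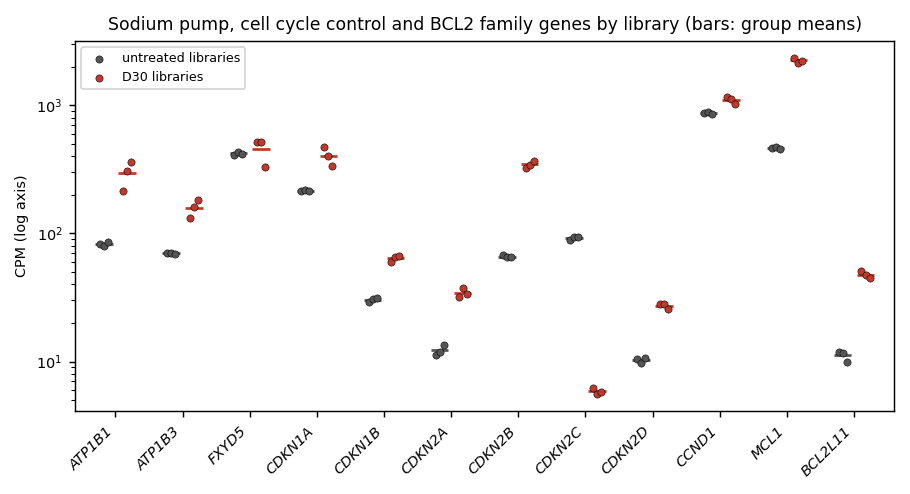
CPM (log axis) of 12 genes in each GIMEN library, grey for the 3 untreated and red for the 3 treated libraries, with a bar at each group mean. ATP1B1, ATP1B3, CDKN2B, MCL1 and BCL2L11 are higher in all 3 treated libraries, CDKN2C is lower in all 3, and the groups overlap for FXYD5.

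Kinases that PP121 is known to inhibit showed smaller changes, with 4 of 14 tested genes higher and 7 lower and a median of -0.28. PRKDC, the DNA-dependent protein kinase, was at 534, 479 and 524 CPM untreated and 220.4, 219 and 213 CPM after treatment (log2 fold change -1.23, SE 0.06, adjusted p = 1.63e-08). PDGFRB, a platelet-derived growth factor receptor, was at 426, 410.01 and 423 CPM untreated and 197, 219 and 204 CPM after treatment (log2 fold change -1.02, SE 0.06, adjusted p = 6.08e-08). FYN, a SRC family kinase, was at 7.19, 9.0 and 8.95 CPM untreated and 22, 24.4 and 21.5 CPM after treatment (log2 fold change 1.44, SE 0.11, adjusted p = 4.49e-07). The groups of all 3 did not overlap. MTOR was at 44.5, 42.8 and 47.3 CPM untreated and 35.6, 44.6 and 34.7 CPM after treatment, with overlapping groups and an adjusted p of 0.0489. The catalytic subunits PIK3CA and PIK3CB rose by 0.65 and 0.88, while PIK3CD fell by 1.06.

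The FOXO and PI3K feedback list, which includes genes known to rise when PI3K signalling is low, had 15 of 23 tested members higher and 6 lower, with a median of 0.91. IRS2, the adaptor that links insulin and insulin-like growth factor receptors to PI3K, was at 37.6, 41.2 and 40.2 CPM untreated and 396, 390.5 and 369 CPM after treatment (log2 fold change 3.28, SE 0.07, adjusted p = 1.04e-11). BCL6, a transcriptional repressor, was at 19.9, 16 and 17.1 CPM untreated and 94, 147 and 129 CPM after treatment (log2 fold change 2.81, SE 0.15, adjusted p = 2.23e-08). FOXO4, a member of the FOXO family itself, was at 3.73, 4.19 and 4.99 CPM untreated and 19.8, 25.2 and 23.8 CPM after treatment (log2 fold change 2.42, SE 0.14, adjusted p = 3.50e-08). All treated libraries stood above all untreated ones. PIK3R3, a regulatory subunit of PI3K, moved the other way, at 55.6, 52.4 and 53.9 CPM untreated and 2.6, 4.91 and 5.01 CPM after treatment (log2 fold change -3.70, SE 0.16, adjusted p = 3.30e-09). The FOXO element GTAAACA was present in 2 of 21 promoters of the list (9.52%), against 2.3% of those of tested genes.

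In the insulin-like growth factor (IGF) list, 7 of 12 tested members were higher and 5 lower. IGF2, the growth factor, was at 499, 513 and 503 CPM untreated and 80.3, 117 and 82.3 CPM after treatment (log2 fold change -2.44, SE 0.12, adjusted p = 1.32e-08). IGF2R, which clears IGF2 from the surface, was at 207, 189.7 and 202 CPM untreated and 524, 449 and 449.5 CPM after treatment (log2 fold change 1.25, SE 0.08, adjusted p = 5.88e-08). IGF2BP1, an RNA-binding protein of fetal and tumour cells, was at 219, 211 and 211 CPM untreated and 80.8, 77.2 and 70.3 CPM after treatment (log2 fold change -1.49, SE 0.07, adjusted p = 4.41e-09). The ligand and the RNA-binding protein were thus lower and the clearing receptor higher, in every treated library. PAPPA, a protease that frees IGF from its binding proteins, was 2.39-fold higher. The other tested changes of the list lay between -0.79 and 1.14 on the log2 scale.

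Genes read as output of the ERK kinase pathway were mostly higher, 14 of 17 tested against 1 lower, with a median of 0.97. EGR1, an early growth response factor, was at 143, 128 and 127 CPM untreated and 966, 909.9 and 652 CPM after treatment (log2 fold change 2.67, SE 0.13, adjusted p = 1.08e-08). DUSP6, the phosphatase that switches off ERK, was at 80.2, 89.4 and 85.9 CPM untreated and 429, 373 and 385 CPM after treatment (log2 fold change 2.22, SE 0.07, adjusted p = 4.42e-10). SPRY4, a feedback inhibitor upstream of ERK, was at 49.4, 48.3 and 44.6 CPM untreated and 211, 225 and 224 CPM after treatment (log2 fold change 2.21, SE 0.07, adjusted p = 1.61e-10). There was no overlap between groups. IER3 rose by 2.39, SPRED3 by 1.53 and ETV1 by 1.16. FOSL1, an AP-1 subunit, was the member that fell, by 1.86, while ETV4 and ETV5 were not called, at 0.04 and -0.01. Without treated replicate 2, 2 members were lower.

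Among AP-1 and MYC factors, 9 of 15 tested were higher and 5 lower. FOS was at 0.747, 1.02 and 0.874 CPM untreated and 24.1, 23.2 and 30.5 CPM after treatment (log2 fold change 4.86, SE 0.18, adjusted p = 8.37e-10). JUNB, its dimer partner, was at 53.7, 55 and 53 CPM untreated and 262, 239.8 and 200.3 CPM after treatment (log2 fold change 2.12, SE 0.09, adjusted p = 3.85e-09). MYC, which drives growth and ribosome production, was at 125, 128 and 134 CPM untreated and 57.3, 50.2 and 40.4 CPM after treatment (log2 fold change -1.39, SE 0.10, adjusted p = 2.85e-07). The AP-1 genes FOS and JUNB were higher in all treated libraries and MYC was lower in all. Its antagonists were split: MXD1 and MXI1 rose by 1.88 and 1.80, and MXD3, which is made in S phase, fell by 3.28.

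Adrenergic genes did not rise as a group. Of 28, 11 were at the detection floor of at most 3 counts in every library, and of 12 tested, 4 were higher and 5 lower. CHGB, a granin of dense-core secretory granules, was at 19.6, 20 and 19.1 CPM untreated and 98, 151 and 156 CPM after treatment (log2 fold change 2.79, SE 0.16, adjusted p = 2.83e-08). SCG2, another granin, was at 243, 231 and 237 CPM untreated and 995, 936 and 993 CPM after treatment (log2 fold change 2.04, SE 0.06, adjusted p = 2.56e-10). GATA2 and EYA1, developmental transcription factors, fell by 1.51 and 1.38 on the log2 scale. GATA3 was at 57.4, 51.8 and 54.7 CPM untreated and 60.8, 67 and 55.7 CPM after treatment (log2 fold change 0.16, SE 0.08, adjusted p = 0.0757). Its groups overlapped, and it passed the threshold only with upper-quartile scaling (adjusted p = 0.0243), with GC content and length trends removed (adjusted p = 0.0254) or without treated replicate 3 (adjusted p = 0.0108). HAND2 fell by 1.05.

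Of 22 tested mesenchymal genes, 14 were lower and 6 higher, with a median of -0.67. SNAI2, a repressor of epithelial genes, was at 77.5, 77.7 and 83.8 CPM untreated and 8.68, 11.3 and 8.63 CPM after treatment (log2 fold change -3.06, SE 0.10, adjusted p = 3.32e-10). AXL, a receptor tyrosine kinase, was at 503, 524 and 532 CPM untreated and 107, 114 and 102 CPM after treatment (log2 fold change -2.27, SE 0.07, adjusted p = 1.49e-10). THY1, a surface glycoprotein of fibroblasts and neurons, was at 44.3, 49.8 and 49.1 CPM untreated and 2.76, 2.65 and 2.59 CPM after treatment (log2 fold change -4.16, SE 0.10, adjusted p = 3.74e-11). In each the treated libraries were all lower. VIM, the intermediate filament vimentin, was at 5235, 5477 and 5210.3 CPM untreated and 2973, 2534 and 2242 CPM after treatment (log2 fold change -1.04, SE 0.10, adjusted p = 2.34e-06). FN1, the matrix protein fibronectin and the most abundant named gene, was at 28936, 27464 and 29289.9 CPM untreated and 16438, 16724 and 14944 CPM after treatment (log2 fold change -0.83, SE 0.08, adjusted p = 3.11e-06). Both were lower in every treated library and stayed at high levels, and FN1 was not called in the model of all 22 libraries (adjusted p = 0.076). PRRX1, a homeobox factor of the mesenchymal state, was at 166, 157 and 167 CPM untreated and 53.1, 127 and 120.1 CPM after treatment (log2 fold change -0.71, SE 0.23, adjusted p = 0.0185). Treated replicate 1 was well below replicates 2 and 3, and the PRRX1 call was lost with DESeq2 (adjusted p = 0.0987), with GC content and length trends removed (adjusted p = 0.058) and without untreated replicate 1 (adjusted p = 0.051). CD44 and ZEB1 rose by 0.59 and 0.69, and YAP1 was not called, at 0.11.

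Neuronal genes were more often lower than higher. Of 18 tested genes of the neuronal cytoskeleton and marker list, 12 were lower and 3 higher, with a median of -0.65, and 11 of the 30 listed were at the floor. MAP2, a microtubule protein of dendrites, was at 86.4, 83.6 and 86.2 CPM untreated and 21.5, 21.8 and 15.1 CPM after treatment (log2 fold change -2.13, SE 0.11, adjusted p = 1.57e-08). DPYSL3, a protein of axon growth, was at 306, 304 and 324 CPM untreated and 65.7, 79 and 77.8 CPM after treatment (log2 fold change -2.07, SE 0.08, adjusted p = 1.08e-09). TUBB3, the neuronal beta tubulin, was at 448, 493 and 479 CPM untreated and 178, 133 and 124 CPM after treatment (log2 fold change -1.71, SE 0.12, adjusted p = 1.46e-07). All were lower in every treated library. MAPT, the axonal protein tau, rose by 1.34 to a mean of 15.6 ± 0.994 CPM (SD, n = 3). NEFM, a neurofilament, had 0 counts in every library, and STMN2, a marker of growing axons, had 1 count in untreated replicate 1 and none in the others.

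Synapse and ion channel genes were split, 8 of 20 tested higher and 10 lower. RIMS1, which organises vesicle release at the synapse, had the largest fall of any gene named here, at 74.1, 72.2 and 75.6 CPM untreated and 0.052, 0.282 and 0.115 CPM after treatment (log2 fold change -8.91, SE 0.17, adjusted p = 6.96e-12). Without treated replicate 2 its log2 fold change was -9.71. RIMS2, its relative, was at 73.3, 71.5 and 75.6 CPM untreated and 31, 21 and 22.4 CPM after treatment (log2 fold change -1.56, SE 0.12, adjusted p = 3.45e-07). CACNA1A, a calcium channel of nerve endings, and SCN2A, a sodium channel, fell by 1.61 and 1.57. Treated libraries lay below untreated ones for all of these.

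Among 5 tested genes of the neurotrophin and GDNF families, 3 were higher and NTRK3, a neurotrophin receptor at low level, fell by 0.90. BDNF, brain-derived neurotrophic factor, was at 17.6, 14.4 and 17.8 CPM untreated and 18.3, 35.6 and 37.1 CPM after treatment (log2 fold change 0.87, SE 0.22, adjusted p = 0.00375). Treated replicate 1 was close to the untreated range and replicates 2 and 3 were well above it. GDNF, a survival factor for several neuron types, was at 11.1, 11.6 and 10.2 CPM untreated and 18.3, 15.1 and 15.5 CPM after treatment (log2 fold change 0.57, SE 0.11, adjusted p = 6.67e-04), and it was not called in the model of all 22 libraries (adjusted p = 0.138). The receptors NTRK2 and RET had means of at most 0.04 CPM in both groups.

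Axon guidance genes were split evenly, 11 of 28 tested higher and 13 lower, with a median of -0.04. SEMA7A, a membrane-anchored semaphorin, was at 113, 118 and 116 CPM untreated and 13.1, 8.12 and 10.4 CPM after treatment (log2 fold change -3.45, SE 0.12, adjusted p = 6.23e-10). SEMA3C, a secreted semaphorin, was at 521, 478 and 486 CPM untreated and 104, 116 and 121 CPM after treatment (log2 fold change -2.12, SE 0.07, adjusted p = 6.17e-10). The netrin receptor UNC5C and the ephrin receptor EPHA7 fell by 2.28 and 2.09. In all 4 genes the treated libraries were lower.

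In the Schwann and glial list, 3 of 7 tested genes were higher and 3 lower. SOX10, the defining factor of the lineage, had 0 counts in untreated libraries and 2 to 5 counts in treated ones. S100B, a glial calcium-binding protein, was at 4.25, 4.01 and 4.47 CPM untreated and 0.052, 0.0564 and 0.173 CPM after treatment (log2 fold change -5.43, SE 0.38, adjusted p = 1.79e-07). With treated cells at the floor, S100B was at least 25.6-fold lower, taking 3 counts per library as the floor. PMP22, a myelin protein also made by fibroblasts, was at 14.3, 10.6 and 12.3 CPM untreated and 37.8, 35.2 and 36 CPM after treatment (log2 fold change 1.55, SE 0.10, adjusted p = 1.33e-07). GFAP rose by 1.27 at levels under 5 CPM.

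Collagen genes went both ways. Of 19 tested, 9 were lower, 5 higher and 5 not called, while the summed collagen level was 13453 to 13764 CPM in untreated and 2227 to 2835 CPM in treated libraries. COL1A1, the alpha 1 chain of type I collagen, was at 8189, 8119.7 and 8353 CPM untreated and 743, 803 and 988 CPM after treatment (log2 fold change -3.28, SE 0.11, adjusted p = 4.11e-10). COL3A1, type III collagen, was at 1424, 1329 and 1376 CPM untreated and 78.3, 156 and 203 CPM after treatment (log2 fold change -3.24, SE 0.26, adjusted p = 5.63e-07). COL5A2, a chain of type V collagen, was at 352, 333 and 349 CPM untreated and 40.6, 42.4 and 48.5 CPM after treatment (log2 fold change -2.97, SE 0.08, adjusted p = 5.48e-11). Treated libraries were all lower, and treated replicate 1 was the lowest in each. COL5A1 fell by 2.82. Among the higher members, COL15A1 rose by 2.23 from a low level and COL27A1 by 1.78 on the log2 scale. The median over the list was -0.08, so the fall was in the abundant chains and not in the typical member.

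Matrix glycoproteins and remodelling enzymes had 16 of 31 tested genes lower and 8 higher, with a median of -0.46. MMP1, the interstitial collagenase, was at 2.66, 4.05 and 3.8 CPM untreated and 510.4, 204 and 249.99 CPM after treatment (log2 fold change 6.52, SE 0.38, adjusted p = 3.58e-08), a 91.6-fold difference with treated replicate 1 above the other treated libraries. TNC, the glycoprotein tenascin C, was at 60.1, 56.7 and 65.8 CPM untreated and 524, 653 and 612 CPM after treatment (log2 fold change 3.29, SE 0.10, adjusted p = 1.48e-10). LOX, the enzyme that cross-links collagen, was at 189.9, 182 and 180.1 CPM untreated and 22, 9.65 and 10.2 CPM after treatment (log2 fold change -3.71, SE 0.22, adjusted p = 5.50e-08). The collagenase and tenascin were thus higher and the cross-linking enzyme lower, without overlap. TGFBI, a matrix protein induced by TGF-beta, fell by 3.88.

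Integrins and laminins, the receptors and ligands of cell adhesion, had 15 of 24 tested genes higher and 5 lower, with a median of 0.65. ITGA10, a collagen receptor subunit, was at 237, 225 and 224 CPM untreated and 1027, 1544 and 1604 CPM after treatment (log2 fold change 2.61, SE 0.14, adjusted p = 2.64e-08). ITGA1, another collagen receptor subunit, was at 6.95, 4.85 and 6.84 CPM untreated and 27.6, 35.3 and 41.3 CPM after treatment (log2 fold change 2.49, SE 0.17, adjusted p = 1.39e-07). ITGB8, which takes part in TGF-beta activation, was at 14.7, 13.6 and 11.7 CPM untreated and 63.5, 61 and 71.4 CPM after treatment (log2 fold change 2.29, SE 0.10, adjusted p = 2.53e-09). Every treated library exceeded every untreated one. LAMA2, a laminin chain of basement membranes, fell by 2.39.

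Contractile genes fell together: 15 of 17 tested were lower, with a median of -1.68 against 0.02 for all genes. TAGLN, the actin-binding protein transgelin, was at 145, 149 and 162 CPM untreated and 3.59, 2.93 and 2.42 CPM after treatment (log2 fold change -5.66, SE 0.11, adjusted p = 6.93e-12). CALD1, caldesmon, which regulates actin and myosin, was at 685, 686 and 695 CPM untreated and 60.2, 58.6 and 54.7 CPM after treatment (log2 fold change -3.57, SE 0.07, adjusted p = 6.33e-12). ACTA2, smooth muscle actin, was at 53.6, 54 and 54 CPM untreated and 12.7, 8.97 and 9.84 CPM after treatment (log2 fold change -2.35, SE 0.11, adjusted p = 5.83e-09). No treated library reached the untreated range for any of them, which the choice of the most changed members favoured. CNN2, a calponin, was at 262, 259 and 279.8 CPM untreated and 45.2, 48.7 and 41.9 CPM after treatment (log2 fold change -2.56, SE 0.07, adjusted p = 1.14e-10), and TPM1, a tropomyosin, fell by 2.31. SRF, itself a member of the list and known to act on contractile genes through CArG boxes, fell by 0.57. Its part in the other falls was not tested. TPM2 was the only tested member to rise, by 0.19, and that call was lost with DESeq2, without the filter, in the model of all 22 libraries and without untreated replicate 1, untreated replicate 2 or treated replicate 2.

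**Figure D3:**
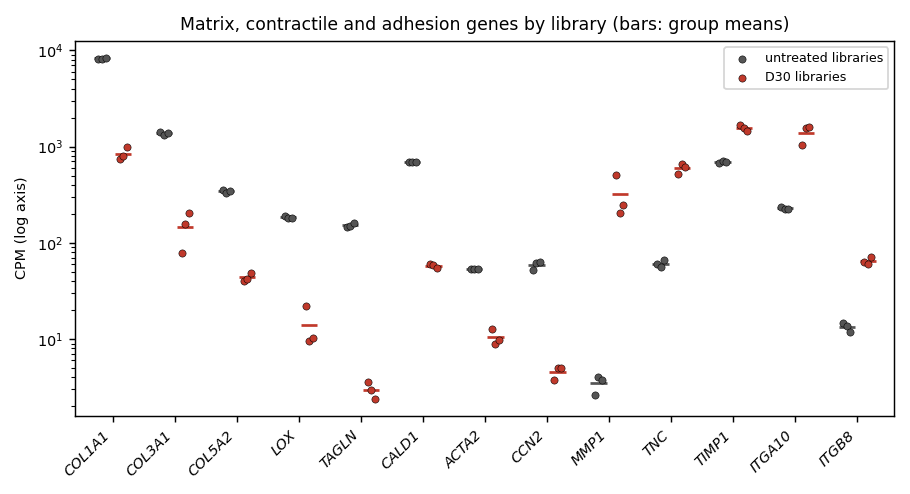
CPM (log axis) of 13 matrix, contractile and adhesion genes in each GIMEN library, grey for the 3 untreated and red for the 3 treated libraries, with a bar at each group mean. COL1A1, COL3A1, COL5A2, LOX, TAGLN, CALD1, ACTA2 and CCN2 are lower and MMP1, TNC, ITGA10 and ITGB8 higher in all 3 treated libraries.

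Promoters of the contractile list are shown because its members fell nearly without exception. A CArG box was present in 5 of 15 contractile promoters (33.3%), against 1.06% of those of tested genes. The lines below give the 150 bases before the start with the CArG boxes in capitals, for ACTG2 at chr2:73892858-73893007 (plus strand) and CNN2 at chr19:1026458-1026607 (plus strand), in GRCh38.p14.
ACTG2: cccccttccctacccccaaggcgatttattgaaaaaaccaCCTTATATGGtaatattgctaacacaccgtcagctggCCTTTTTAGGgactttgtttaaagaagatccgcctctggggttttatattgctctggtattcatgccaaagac
CNN2: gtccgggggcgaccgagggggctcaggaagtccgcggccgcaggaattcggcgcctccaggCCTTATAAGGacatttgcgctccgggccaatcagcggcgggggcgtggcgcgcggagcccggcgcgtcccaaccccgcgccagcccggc
ACTG2, an enteric smooth muscle actin with 2 boxes in this stretch, was at 4.48, 3.96 and 4.63 CPM untreated and 0.208, 0.0564 and 0 CPM after treatment (log2 fold change -5.47, SE 0.46, adjusted p = 8.28e-07). Its treated libraries were near the detection limit.

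Targets of YAP and TEAD, which respond to cell tension and density, had 13 of 19 tested genes lower and 2 higher, with a median of -0.98. ANKRD1, a nuclear ankyrin-repeat protein, was at 19.1, 21.1 and 21.4 CPM untreated and 0.364, 0.564 and 0.173 CPM after treatment (log2 fold change -5.78, SE 0.22, adjusted p = 1.02e-09). CCN2, the matricellular connective tissue growth factor, was at 52.3, 61.2 and 62.5 CPM untreated and 3.8, 5.02 and 5.01 CPM after treatment (log2 fold change -3.67, SE 0.12, adjusted p = 3.32e-10). CCN1, its relative, was at 217, 233 and 257 CPM untreated and 35.5, 41 and 37 CPM after treatment (log2 fold change -2.64, SE 0.08, adjusted p = 2.74e-10). All 3 were lower in all treated libraries, while YAP1 itself was not called. FJX1 fell by 2.14. The TEAD element GGAATG was present in 5 of 12 promoters of the list (41.7%), against 11% of those of tested genes. These were of CCN2 and ANKRD1, and of PTPN14, NUAK2 and LATS2, which changed by -0.47, -0.27 and 0.37 on the log2 scale.

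In the TGF-beta and BMP list, 10 of 24 tested genes were higher and 10 lower. SMAD7, a feedback inhibitor of TGF-beta, was at 29.7, 29.1 and 32 CPM untreated and 4.47, 4.57 and 3.8 CPM after treatment (log2 fold change -2.82, SE 0.11, adjusted p = 1.10e-09). SMAD6, a feedback inhibitor of BMP, was at 24.9, 23.5 and 22.7 CPM untreated and 4.26, 5.7 and 5.12 CPM after treatment (log2 fold change -2.24, SE 0.12, adjusted p = 1.76e-08). ID2, a target of BMP, fell by 2.16, and TGFBR3, a co-receptor, rose by 2.09. The groups of all 4 were apart.

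Inflammatory genes rose more often than they fell. In the NF-kB list, 13 of 19 tested genes were higher and 2 lower, with a median of 0.98. NFKBIA, the inhibitor that NF-kB itself induces, was at 20.5, 19.4 and 19.5 CPM untreated and 84.9, 188 and 182 CPM after treatment (log2 fold change 2.93, SE 0.25, adjusted p = 9.26e-07). IRAK2, a kinase of interleukin 1 signalling, was at 7.23, 6.24 and 6.22 CPM untreated and 33.2, 46.4 and 49.8 CPM after treatment (log2 fold change 2.71, SE 0.15, adjusted p = 2.98e-08). SOD2, mitochondrial superoxide dismutase, was at 45.2, 40.9 and 41.1 CPM untreated and 123, 102 and 112 CPM after treatment (log2 fold change 1.40, SE 0.08, adjusted p = 3.10e-08). Treated libraries were above untreated ones in each, and NFKBIA was lowest in treated replicate 1. NFKB2 rose by 1.31, while TRAF1 and NFKB1 fell by 1.02 and 0.19. The NFKB1 call was lost with upper-quartile scaling, with DESeq2, with the replicate block, in the model of all 22 libraries and without any library other than treated replicate 1, which left 1 member lower.

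Of 31 chemokines and cytokines, 11 were tested, 6 of them higher and 3 lower, and 11 were at the floor. CXCL12, a chemokine of stromal cells, was at 121, 114 and 118 CPM untreated and 3.54, 1.07 and 1.38 CPM after treatment (log2 fold change -5.84, SE 0.21, adjusted p = 8.37e-10), and its log2 fold change was -6.57 without treated replicate 1. CSF1, the macrophage growth factor, was at 75.2, 68.9 and 69.3 CPM untreated and 517, 394 and 404 CPM after treatment (log2 fold change 2.62, SE 0.10, adjusted p = 1.70e-09). IL11 and LIF, cytokines of the interleukin 6 family, rose by 1.87 and 1.09. Treated libraries were all lower for CXCL12 and all higher for CSF1, IL11 and LIF. Without the filter on low counts, and with DESeq2, 10 members of the list were higher.

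Genes of MHC class I antigen presentation were higher in 11 of 12 tested cases, with a median of 0.90. TAP1, the peptide transporter, was at 4.15, 3.25 and 3.7 CPM untreated and 17.8, 20.7 and 15.4 CPM after treatment (log2 fold change 2.28, SE 0.15, adjusted p = 1.08e-07). TAPBP, which loads peptide onto class I molecules, was at 70.1, 69.3 and 71.1 CPM untreated and 141, 167 and 138 CPM after treatment (log2 fold change 1.08, SE 0.08, adjusted p = 1.93e-07). Neither had overlapping groups. B2M, the common light chain, rose by 0.76, and PSMB10, an immunoproteasome subunit, fell by 0.36, a call lost with upper-quartile scaling, with GC content and length trends removed, in the model of all 22 libraries and without untreated replicate 1 or 2 or treated replicate 1 or 2. Interferon-stimulated genes were split, 12 of 31 tested higher and 10 lower, with PARP14 up by 1.11, IRF9 up by 0.76, and SAMD9L and DDX60 down by 1.22 and 0.91 on the log2 scale.

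In the complement and acute phase list, 5 of 10 tested genes were higher and 3 lower. CD55, which shields cells from complement, was at 3.27, 3.43 and 2.67 CPM untreated and 72.7, 43.6 and 44.6 CPM after treatment (log2 fold change 4.10, SE 0.22, adjusted p = 2.13e-08). CD46, another shield, was at 174, 178 and 167 CPM untreated and 469, 438 and 502 CPM after treatment (log2 fold change 1.44, SE 0.07, adjusted p = 7.49e-09). The component C5 fell by 1.66. CD59, also a surface shield, rose by 0.58.

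Genes of sterol and fatty acid synthesis were lower in 22 of 31 tested cases and higher in 5, with a median of -0.58. HMGCS1, which makes the precursor of mevalonate, was at 29.7, 28.3 and 34.1 CPM untreated and 15.8, 15.8 and 17.2 CPM after treatment (log2 fold change -0.92, SE 0.09, adjusted p = 4.07e-06). EBP, a sterol isomerase, was at 30.9, 36.7 and 34.8 CPM untreated and 11.1, 9.37 and 11.5 CPM after treatment (log2 fold change -1.68, SE 0.10, adjusted p = 6.34e-08). Every treated library was below every untreated one in both genes. NSDHL and MVD, also enzymes of the pathway, fell by 1.16 and 1.13. TCACNCCAC, a sterol regulatory element, was present in 1 of 25 promoters of the list (4%), against 1.11% of those of tested genes. That promoter was of SREBF2, which went against the list, with a log2 fold change of 0.60.

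The unfolded protein and integrated stress list was split, 13 of 29 higher and 14 lower. DNAJB9, a chaperone of the endoplasmic reticulum, was at 11.6, 12 and 12.2 CPM untreated and 62.2, 60.6 and 75.8 CPM after treatment (log2 fold change 2.47, SE 0.10, adjusted p = 1.61e-09). DDIT3, the stress factor CHOP, was at 11.6, 11.7 and 12.1 CPM untreated and 69.6, 58.2 and 50.8 CPM after treatment (log2 fold change 2.34, SE 0.11, adjusted p = 8.84e-09). SLC7A11, the cystine importer, was at 31.5, 30.2 and 28.1 CPM untreated and 4.47, 5.87 and 6.1 CPM after treatment (log2 fold change -2.45, SE 0.12, adjusted p = 9.08e-09). DNAJB9 and DDIT3 were higher and SLC7A11 lower in all treated libraries. TRIB3, a target of CHOP and ATF4, rose by 2.35. The element TGATGCAA was present in 2 of 28 promoters of the list (7.14%), against 0.485% of those of tested genes. These 2 genes went opposite ways, HERPUD1 by 0.70 and CHAC1 by -0.42 on the log2 scale.

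Among NRF2 targets, ferritins and metallothioneins, 7 of 12 tested were higher and 3 lower. GCLC, the rate-limiting enzyme of glutathione synthesis, was at 7.93, 9.0 and 8.43 CPM untreated and 28.2, 33.3 and 32.6 CPM after treatment (log2 fold change 1.89, SE 0.10, adjusted p = 1.80e-08). HMOX1, heme oxygenase 1, was at 27.5, 24.4 and 23.8 CPM untreated and 18.3, 7.28 and 7.66 CPM after treatment (log2 fold change -1.18, SE 0.27, adjusted p = 0.00207). MT2A, a metallothionein, was at 173, 193 and 196 CPM untreated and 520.4, 349.5 and 308 CPM after treatment (log2 fold change 1.07, SE 0.16, adjusted p = 8.06e-05). GCLC and MT2A were higher and HMOX1 lower in all treated libraries, with treated replicate 1 the highest for HMOX1 and MT2A. NQO1 fell by 0.78.

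Lysosome and autophagy genes were higher in 22 of 28 tested cases and lower in 2, with a median of 0.70, and their summed level was 4171 to 4262 CPM in untreated and 8895 to 10529 CPM in treated libraries. GABARAPL1, a protein of the autophagosome membrane, was at 11.9, 11 and 12.9 CPM untreated and 109, 111 and 107 CPM after treatment (log2 fold change 3.20, SE 0.07, adjusted p = 2.01e-11). NPC1, which exports cholesterol from lysosomes, was at 13.4, 12.5 and 12.6 CPM untreated and 79, 52.5 and 56.2 CPM after treatment (log2 fold change 2.28, SE 0.14, adjusted p = 7.30e-08). CTSL, the protease cathepsin L, was at 65.6, 68.7 and 71.2 CPM untreated and 355, 226 and 258 CPM after treatment (log2 fold change 2.03, SE 0.14, adjusted p = 1.44e-07). Treated libraries were above untreated ones in each. PSAP, the precursor of the saposins that help to break down lipids, was at 466, 482 and 485 CPM untreated and 2038, 1698 and 1857 CPM after treatment (log2 fold change 1.96, SE 0.08, adjusted p = 2.06e-09).

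Promoters of lysosomal genes are known for an E-box bound by TFEB and its relatives, and the list is shown for its rise across most members. CACGTG was present in 7 of 19 promoters of the list (36.8%), against 9.94% of those of tested genes. These were of CTSD, NEU1, CTSA, MCOLN1, GAA, LAMP1 and ATP6V0D1. CTSA, MCOLN1, GAA and LAMP1 changed by 0.70, 0.59, 0.53 and 0.32 on the log2 scale. ATP6V0D1 went against the list, with a log2 fold change of -0.20. The lines below give the 150 bases before the start with the E-box in capitals, in GRCh38.p14, for CTSD at chr11:1763928-1764077 (minus strand) and NEU1 at chr6:31862822-31862971 (minus strand), chosen as the members of largest change with the element there.
CTSD: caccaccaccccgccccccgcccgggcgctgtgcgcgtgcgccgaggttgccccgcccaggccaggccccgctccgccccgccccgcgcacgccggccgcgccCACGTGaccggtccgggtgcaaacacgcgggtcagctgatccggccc
NEU1: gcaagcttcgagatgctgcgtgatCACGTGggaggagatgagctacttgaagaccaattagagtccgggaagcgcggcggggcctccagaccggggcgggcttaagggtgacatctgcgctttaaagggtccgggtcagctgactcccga
CTSD, the protease cathepsin D, and NEU1, a lysosomal sialidase, rose by 1.31 and 1.08 on the log2 scale.

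Glycolysis and hypoxia genes were lower in 21 of 27 tested cases and higher in 3, with a median of -0.62. CA9, carbonic anhydrase 9, a target of hypoxia-inducible factor, was at 68.9, 76.1 and 71.7 CPM untreated and 6.97, 6.21 and 7.37 CPM after treatment (log2 fold change -3.40, SE 0.09, adjusted p = 4.80e-11). PDK1, which blocks entry of pyruvate into mitochondria, was at 70.3, 67 and 68.1 CPM untreated and 11.6, 8.91 and 9.38 CPM after treatment (log2 fold change -2.78, SE 0.09, adjusted p = 4.42e-10). PGK1, a glycolytic enzyme, was at 859.7, 898 and 863 CPM untreated and 275, 271 and 276 CPM after treatment (log2 fold change -1.67, SE 0.06, adjusted p = 8.11e-10). All treated libraries were lower. PGAM1, another glycolytic enzyme, fell by 1.90.

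Nuclear genes of the respiratory chain were lower in 23 of 32 tested cases and higher in none, with a median of -0.36, and no member changed 2-fold. The share called, 71.9%, was close to the 71.4% of all genes. NDUFA6 of complex I was at 37.5, 43.2 and 40.6 CPM untreated and 21.5, 20.5 and 18.8 CPM after treatment (log2 fold change -0.996, SE 0.08, adjusted p = 8.05e-07). COX5A of complex IV and UQCRFS1 of complex III fell by 0.90 and 0.84, and NDUFB8 of complex I fell by 0.87. Each was lower in all treated libraries. Of 79 ribosomal protein genes, 52 were lower and 1 higher, with a median of -0.33. RPS26 was at 163, 190.4 and 156 CPM untreated and 56, 60 and 54.9 CPM after treatment (log2 fold change -1.58, SE 0.08, adjusted p = 1.54e-08). RPS29, RPSA and RPS2 fell by 1.32, 0.95 and 0.90. With GC content and length trends removed, 28 ribosomal genes were lower and 8 higher, so their count depends on that correction. Without treated replicate 3, which had the lowest mitochondrial share, 3 ribosomal genes and 1 respiratory gene were higher.

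**Figure D4:**
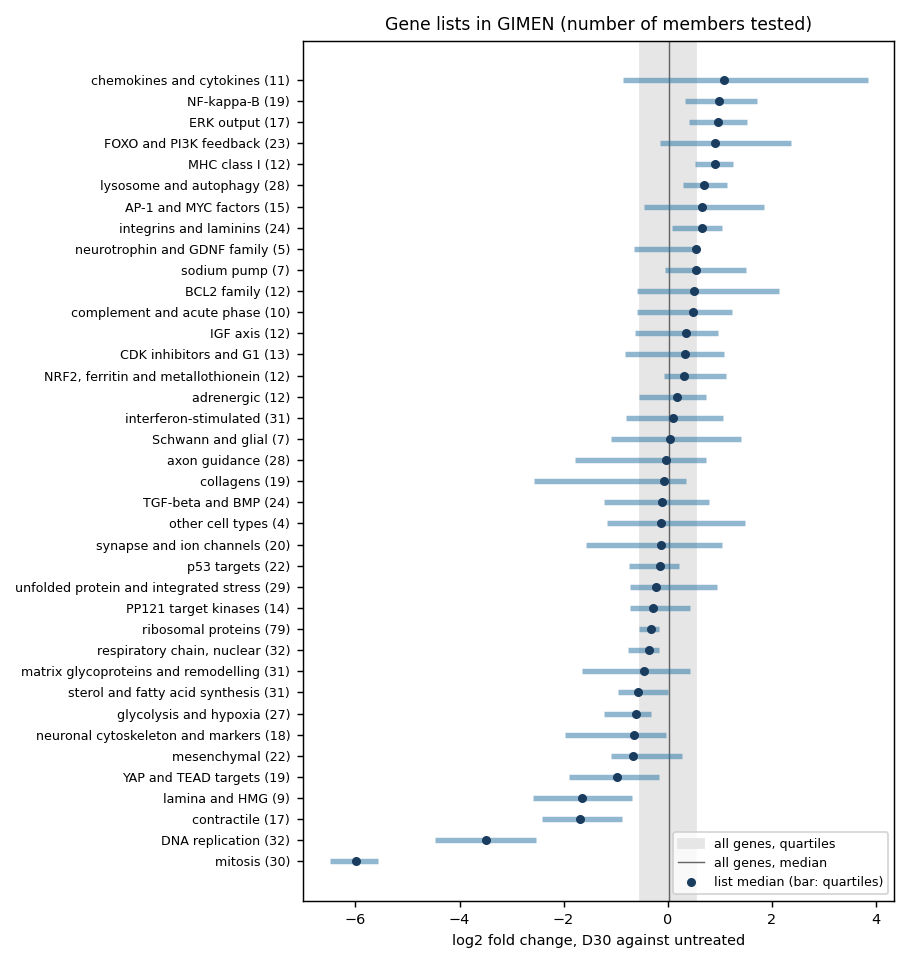
Median log2 fold change (point) and quartiles (bar) of the tested members of 38 gene lists in treated against untreated GIMEN cells, with the number tested in brackets. The grey band and line give the quartiles and the median of all 13517 genes. The mitosis and DNA replication lists lie far to the left, and no list lies as far to the right.

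Of the 10 largest rises, MMP1 is given above, and the other genes stand outside the lists. STC1, the secreted glycoprotein stanniocalcin 1, was at 79.9, 82.5 and 76.1 CPM untreated and 2761, 2423 and 2120.5 CPM after treatment (log2 fold change 4.94, SE 0.11, adjusted p = 1.82e-11). CRLF2, a cytokine receptor chain, was at 0.327, 0.401 and 0.257 CPM untreated and 40.9, 51.9 and 50.8 CPM after treatment (log2 fold change 7.15, SE 0.18, adjusted p = 4.95e-11). GPNMB, a glycoprotein of lysosomes and melanosomes, was at 0.467, 0.713 and 0.463 CPM untreated and 51.7, 21.9 and 30.2 CPM after treatment (log2 fold change 5.96, SE 0.40, adjusted p = 1.15e-07). Treated libraries were all higher in these genes, which the choice of genes with groups apart required. MSMP, a secreted chemoattractant, was at 0.0933, 0.178 and 0.206 CPM untreated and 29.2, 59.1 and 66.6 CPM after treatment (log2 fold change 8.29, SE 0.47, adjusted p = 3.25e-08). MS4A7, a membrane protein of macrophages, was at 0.327, 0.0891 and 0.257 CPM untreated and 12.7, 27.2 and 33.7 CPM after treatment (log2 fold change 6.75, SE 0.49, adjusted p = 2.59e-07). TNFSF15, a cytokine of the tumour necrosis factor family, was at 2.99, 2.63 and 3.55 CPM untreated and 43.4, 109 and 118 CPM after treatment (log2 fold change 4.89, SE 0.38, adjusted p = 3.86e-07). Treated replicate 1 was the lowest treated library for MSMP, MS4A7 and TNFSF15. The macrophage markers CD14, ITGAM and LYZ had at most 16 counts in any library, and the part of other cells in these rises was not tested. PRSS35, a serine protease-like protein, was at 0.607, 0.445 and 0.566 CPM untreated and 8.94, 46.9 and 52.4 CPM after treatment (log2 fold change 6.05, SE 0.72, adjusted p = 1.53e-05), and RANBP3L, a RAN-binding protein, was at 2.94, 2.27 and 2.62 CPM untreated and 30, 108 and 131 CPM after treatment (log2 fold change 5.10, SE 0.52, adjusted p = 4.38e-06). RP11-572P18.1, a gene with a clone name, was at 1.07, 0 and 0 CPM untreated and 11.1, 16.5 and 42.8 CPM after treatment (log2 fold change 5.98, SE 0.77, adjusted p = 2.78e-05). Its log2 fold change was 11.81 without untreated replicate 1, 5.36 without untreated replicate 2 and 5.23 without treated replicate 3.

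Of the 10 largest falls, KIF20A, TK1, CDC20, BIRC5 and RIMS1 are given above. MYBL2, a transcription factor of the MuvB complex, was at 67.5, 72 and 72 CPM untreated and 0.26, 0.339 and 0.403 CPM after treatment (log2 fold change -7.71, SE 0.13, adjusted p = 2.74e-12). CEP55, which acts in the last step of cell separation, was at 60.3, 59.4 and 62.2 CPM untreated and 0.416, 0.339 and 0.288 CPM after treatment (log2 fold change -7.41, SE 0.13, adjusted p = 3.38e-12). DLGAP5, a spindle protein, fell by 7.11 on the log2 scale. APOBEC3B, a DNA cytidine deaminase, was at 30.8, 32.1 and 35.2 CPM untreated and 0.052, 0.169 and 0.0576 CPM after treatment (log2 fold change -8.38, SE 0.21, adjusted p = 5.04e-11). In all 4 genes the treated libraries were below the untreated ones, which the choice of genes with groups apart required. With treated cells at the floor, APOBEC3B was at least 197-fold lower, taking 3 counts per library as the floor, and its log2 fold change was -9.07 without treated replicate 2. CTD-2116N17.1, a gene with a clone name, fell by 7.17.

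The response was set beside the 30-day response of SK-N-AS, in which cells passed through an earlier stage with PP121 and then received 5 µM PP121 and 100 nM bufalin in a neuronal medium. Dose, medium and the earlier stage differ between the lines, so a difference cannot be assigned to the line. An interaction between line and treatment passed an adjusted p under 0.05 for 8069 of 16246 genes (49.7%). Among 14 key genes, 12 were tested in GIMEN and 10 differed, while MAP2 and TUBB3 did not pass the test (adjusted p = 0.393 and 0.201). For MAP2 the change was -2.15 in GIMEN and -1.82 in SK-N-AS, a difference of -0.33 (SE 0.30), and for TUBB3 it was -1.73 and -2.09, a difference of 0.36 (SE 0.23). CDKN1A rose by 0.88 in GIMEN and 4.81 in SK-N-AS, with a smaller change in GIMEN. Its untreated mean was 240 CPM in GIMEN and 12.1 CPM in SK-N-AS, and its treated mean was 442 and 339 CPM. ATP1B1 rose by 1.82 in GIMEN and fell by 0.73 in SK-N-AS. VIM and PRRX1 were lower in GIMEN (-1.06 and -0.72) and higher in SK-N-AS (1.53 and 1.59). HMGCS1 was lower in GIMEN (-0.93) and higher in SK-N-AS (1.11). COL1A1 fell in both, by 3.30 in GIMEN and 3.77 in SK-N-AS. The plot of both lines shows the opposite directions of 4 genes called in GIMEN, ATP1B1, PRRX1, VIM and HMGCS1.

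**Figure D5:**
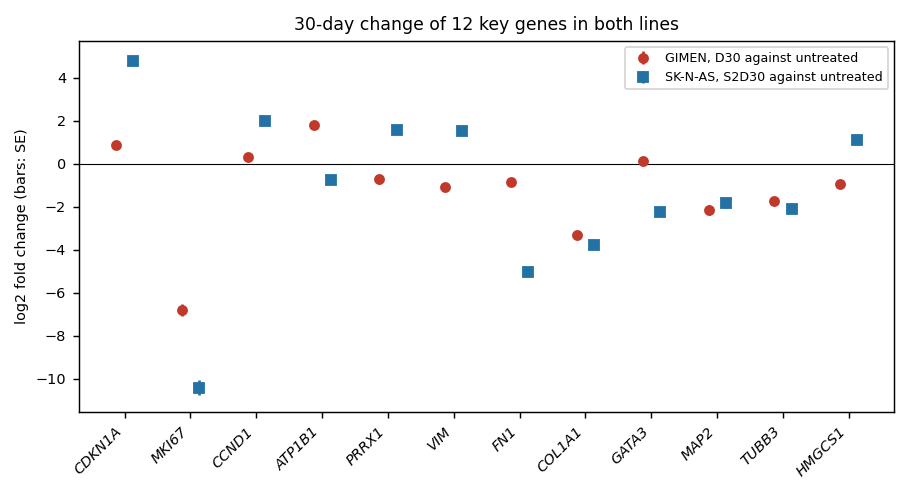
Log2 fold change at 30 days with its SE (bars) for 12 key genes, in GIMEN (circles, 3 against 3 libraries) and SK-N-AS (squares, 4 against 4 libraries). ATP1B1, PRRX1, VIM and HMGCS1 lie on opposite sides of 0, as does GATA3, which was not called in GIMEN, and MKI67 lies far below 0 in both.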

How the data were processed

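RNA was measured in 22 libraries, of which 6 from GIMEN are compared here. The authors deposited raw counts per gene symbol, in whole numbers without normalization as checked on the values. The aligner, counter, genome build, annotation and use of strand are not given in the sources used here. Groups and doses come from the labels.

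Counts were tested in R 4.3.3 with edgeR 4.0.16 (quasi-likelihood F-test, TMM scaling, filterByExpr with a minimum count of 10 and total of 15), group as the only term, and Benjamini-Hochberg adjustment over 13517 genes at a threshold of 0.05. CPM values are scaled by TMM within GIMEN, and over 14 libraries where the lines are compared. Each SE is the absolute log2 fold change divided by the square root of the F statistic. It is thus calculated back from the test. The interaction used 14 libraries and 16246 genes. A simulation of 13517 genes changed 100 of them by a log2 fold of 1 and 100 by 2, evenly up and down. Every gene had the same spread between replicates (dispersion 0.01). Of the changed genes, 87% and 96% were recovered, with 12 false calls. In the real comparison 71.4% of genes were called, a setting that was not simulated, so these rates are not its error rates. Total counts of 16456484 to 23248253 set the precision. Alternatives included DESeq2 1.42.0, other scalings and filters, a replicate block, all 22 libraries, and leaving out each library.

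Named genes were the 10 largest rises and falls at 10 CPM or more with groups apart, 14 key genes (CDKN1A, MKI67, CCND1, ATP1B1, PRRX1, VIM, FN1, COL1A1, GATA3, MAP2, TUBB3, NEFM, STMN2 and HMGCS1), the 4 most changed called members of each of 38 lists at 10 CPM or more, and any member of lists of up to 20 genes. Some genes that the rule names are not reported here. Outside this rule, E2F1, E2F2, CTSD and NEU1 were chosen for their promoters, and COL15A1 and COL27A1 as rising collagens, after values were seen, and the cell type markers by a separate list. The comparison, lists and motifs were chosen with earlier results of these data known. All 951 list genes were found, 8 under an older symbol, and 777 were tested. A gene was at the floor where each library of a group had at most 3 counts. No set test was run: lists are described by counts and medians.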

Additional observations from a re-analysis of the deposited data

Results flagged for a closer look

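The 30-day change differed between GIMEN and SK-N-AS for 10 of 12 tested key genes in the edgeR interaction test at an adjusted p under 0.05. The share over all genes was 49.7%. The key genes are a chosen list, and the comparison was chosen with earlier results known, so these shares do not show an excess. Dose, medium and the earlier stage also differ between the lines and cannot be told apart from the line. As GIMEN minus SK-N-AS on the log2 scale, the 30-day change of CDKN1A differed by -3.93, that of CCND1 by -1.70, that of PRRX1 by -2.31, that of VIM by -2.59 and that of HMGCS1 by -2.04. The difference was 3.60 for MKI67, 4.19 for FN1, 2.55 for ATP1B1, 0.47 for COL1A1 and 2.36 for GATA3. Adjusted p-values of the interaction ran from 6.04e-11 for CDKN1A to 0.0176 for COL1A1. The fibronectin gene FN1 fell in both lines, by 0.85 in GIMEN and 5.04 in SK-N-AS. Its untreated mean was 31660 CPM in GIMEN and 59.6 CPM in SK-N-AS, and its treated mean was 17562 and 1.79 CPM. The sympathetic factor GATA3 changed by 0.15 in GIMEN, where it was not called, and fell by 2.22 in SK-N-AS. MKI67 was lower in both, with log2 changes of -6.80 in GIMEN and -10.41 in SK-N-AS. Treated SK-N-AS libraries held MKI67 at 0 to 0.417 CPM, so its fold in that line and the difference of 3.60 rest on a group near 0 and depend on the prior count of the model.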

How the results depend on the processing

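Stability was counted for 167 genes: the largest rises and falls, the tested key genes and the most changed called members of each list. None of them changed sign under the alternatives run, and 2496 of 2505 values kept direction and side of the threshold. Most of these genes were chosen for large called changes. Other members described above were not counted, and the calls of HMGA1, TPM2, NFKB1, PSMB10 and PTPRC were lost under several alternatives. The counts were 4535 higher and 4775 lower with DESeq2, 5122 and 4541 with upper-quartile factors, 4911 and 5266 without the filter, 4388 and 4098 in the model of all 22 libraries, and 1599 and 1738 where a 2-fold change was also required. After the data were seen, GC content and length trends were removed (5212 and 4569) and scaling left out the 5 most abundant genes (4794 and 4861). Leaving out 1 library gave 4393 to 4806 higher and 4506 to 4906 lower. The replicate block gave 4658 higher and 4763 lower genes. Same-numbered libraries had deviations that correlated at -0.033 to 0.002, no library correlated best with its own number, and the numbers did not pair them. The interaction passed for 7361 to 8517 genes over its alternatives.

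Of 1140 list counts under alternatives, 1084 were within 1.5 times the reported count. The exceptions were small counts apart from ribosomal genes, and their cause was not tested. Lamina members higher were 0 with DESeq2 and with all 22 libraries, and contractile members higher were 0 with these and without the filter. Chemokines higher were 10 with DESeq2 and without the filter. The model of all 22 libraries gave 4 IGF genes higher, 0 neurotrophin genes lower, 3 collagens higher, 9 stress genes lower, 0 lysosome genes lower and 33 ribosomal genes lower. NF-kB members lower were 1 with upper-quartile factors, DESeq2, the replicate block and all 22 libraries. MHC members lower were 0 with upper-quartile factors, all 22 libraries and GC content and length trends removed. Upper-quartile factors gave 1 respiratory gene higher and 2 ribosomal genes higher, and removed trends gave 8 ribosomal genes higher and 28 lower. Markers of other cell types higher were 2 with upper-quartile factors and all 22 libraries, and those lower were 1 with upper-quartile factors, DESeq2, no filter, the replicate block and removed trends. Leaving out 1 library gave 0 to 1 lamina, 0 to 1 contractile, 0 to 1 respiratory, 1 to 3 ribosomal and 1 to 2 other-type members higher, and 1 to 2 ERK, 1 to 2 NF-kB, 0 to 1 MHC and 1 to 2 other-type members lower.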

Other observations

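Several further gene groups were drawn up after values were seen and are given as values only. Over all genes, 35.5% were higher and 36% lower. Dense-core granule genes, which store and process neuropeptides, were higher in 8 of 10 tested cases and lower in none, with a median log2 fold change of 2.13. Among them, CHGB and SCG2 were already counted in the adrenergic list. VGF, a neuropeptide precursor, was at 217, 225 and 228 CPM untreated and 2685, 2205 and 2121 CPM after treatment. PTPRN, a granule membrane protein, was at 196, 203 and 190.2 CPM untreated and 1781, 1551 and 1334 CPM after treatment. PCSK1, which cuts prohormones, was at 0.98, 1.07 and 0.771 CPM untreated and 10.4, 9.03 and 9.38 CPM after treatment. Treated libraries were higher in each, while CHGA, another granin, had at most 2 counts in any library. The granin SCG3 and PTPRN2 were not called, at 0.59 and 0.04.

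Immediate early genes were higher in 12 of 15 tested cases and lower in 2, with a median of 2.32. FOS, JUNB and EGR1 among them were already counted in the AP-1 and ERK lists, so this count is not independent of those. NR4A2, an orphan nuclear receptor, was at 20.9, 17.9 and 21.2 CPM untreated and 221, 263 and 248 CPM after treatment. DUSP1, a phosphatase of MAP kinases, was at 12.7, 13.8 and 12.3 CPM untreated and 83.8, 96.8 and 81.4 CPM after treatment. EGR3 and KLF10 fell by 0.92 and 1.35. FBXO32, a ubiquitin ligase known from muscle atrophy and a FOXO target, was at 2.15, 1.92 and 1.85 CPM untreated and 51.7, 38.1 and 41.5 CPM after treatment, and SGK1, a kinase that FOXO factors induce, was at 12, 14.3 and 14.6 CPM untreated and 86.9, 148 and 163 CPM after treatment. Treated libraries were above untreated ones in these rising genes.

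Of 16 genes of DNA methylation and polycomb repression, 9 were lower and 4 higher. UHRF1, which brings DNMT1 to replicated DNA, was at 356, 363 and 375 CPM untreated and 8.37, 9.14 and 7.66 CPM after treatment. EZH2, the polycomb methyltransferase of dividing cells, was at 60.4, 63.6 and 60.9 CPM untreated and 6.71, 6.66 and 5.76 CPM after treatment. EZH1, its relative in resting cells, was at 32.9, 30 and 28.7 CPM untreated and 109, 105 and 105 CPM after treatment. CBX7, a polycomb reader, was at 5.55, 4.94 and 5.14 CPM untreated and 53.3, 55.2 and 49.1 CPM after treatment. EZH2 and UHRF1 were lower and EZH1 and CBX7 higher in every treated library. Of 14 cytosolic heat shock genes, 4 were higher, 6 lower and 4 not called, a share called at the level of all genes (71.4%). HSPA1A and HSPA1B rose by 1.10 and 1.26 and HSPB1 fell by 1.37 on the log2 scale. Sequence shared with other genes was not checked for HSPA1A, HSPA1B and HSPB1.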
